A study of Mus musculus with 24 samples.

Results

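The genes described here encode heat shock chaperones: Hspa1a, Hspa1b, Hspa8 and Hspa5 of the HSP70 family, the HSP110 exchange factor Hsph1, the HSP40 co-chaperone Dnajb1, the HSP90 genes Hsp90aa1 and Hsp90ab1, the small heat shock protein Hspb1 and the mitochondrial co-chaperonin Hspe1. They were chosen by name, as every gene probe of the arrays that carries a member's symbol. Of the 10 genes, 9 had a probe, among 28786 genes with a probe in all, and no probe is named Hspa1b. Their annotated spans (GRCm38.p6, all protein-coding) are Hspa1a at chromosome 17, 34969359 to 34972156, Hspa8 at chromosome 9, 40801276 to 40805202, Hspa5 at chromosome 2, 34772090 to 34776529, Hsph1 at chromosome 5, 149616843 to 149636498, and Dnajb1 at chromosome 8, 83608175 to 83612653. Hsp90aa1 lies at chromosome 12, 110691036 to 110696395, Hsp90ab1 at chromosome 17, 45567778 to 45573261, Hspb1 at chromosome 5, 135887919 to 135889563, and Hspe1 at chromosome 1, 55088148 to 55091317. The 9 genes had 16 probes, 4 for Hspa1a, 2 each for Hspa8, Dnajb1, Hsp90ab1 and Hspb1, and 1 each for the others. All 16 passed the filter on dim probes and none was saturated. Hsph1 appears in the files under the older name Hsp110 and was matched by its accession.

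RNA came from whole thymuses of C57BL/6 mice, all 15 weeks old, with 6 mice in each of 4 genotypes. Beside wild type these were a p27 knockout, which lacks Cdkn1b and with it the cyclin-dependent kinase inhibitor p27Kip1, a stathmin knockout, which lacks Stmn1 and its microtubule-destabilising product, and a double knockout that lacks both genes. Each genotype had 3 females and 3 males. The sex of the single mouse and the nature of the knockout alleles were not stated in the sources used here. The study addressed how p27 and stathmin control cell proliferation in the animal. Every array set a thymus (Cy5 dye) against a single pool of fibroblast RNA from all the genotypes (Cy3 dye), so each value below is a log2 ratio of the thymus to that pool. A value of 0 is equal signal, and a difference of 1 between thymuses is a doubling.

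Heat shock proteins bind unfolded proteins and help them fold or be degraded. HSP70 proteins work in cycles with J-domain (HSP40) partners and with nucleotide exchange factors such as HSP110, and HSP90 finishes the folding of kinases and steroid receptors. Hspa8, Hsp90ab1 and Hspa5 are made in unstressed cells, whereas Hspa1a, Hspa1b, Dnajb1, Hsph1 and Hsp90aa1 are classic targets of the transcription factor HSF1, which acts when unfolded proteins accumulate in the cytosol. Hspa5 (BiP), the HSP70 of the endoplasmic reticulum, answers instead to the unfolded protein response. In the thymus, glucocorticoid receptors held by HSP90 and its partners take part in the death of immature thymocytes.

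These 2 kinds of control act through short sequence elements, which were searched for in the genes' promoters. The stretches before the start sites are therefore shown for Hspa1a, Hspa1b, Hsph1, Hspe1 and Hspa5. RefSeq windows (GRCm38.p6, 250 bases before to 50 after a start site) were held for 7 of the 10 genes, not for Hspa8, Hsp90aa1 or Hsp90ab1. Each line gives the 250 bases before the start site, 5′ to 3′ on the gene's strand, and the capitals mark a pair of heat shock units (GAANNTTC or TTCNNGAA, each its own complement, overlapping pairs joined) or, in Hspa5, the ER stress element (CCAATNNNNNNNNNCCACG, searched on both strands).
Hspa1a, chr17:34972157-34972406, minus strand: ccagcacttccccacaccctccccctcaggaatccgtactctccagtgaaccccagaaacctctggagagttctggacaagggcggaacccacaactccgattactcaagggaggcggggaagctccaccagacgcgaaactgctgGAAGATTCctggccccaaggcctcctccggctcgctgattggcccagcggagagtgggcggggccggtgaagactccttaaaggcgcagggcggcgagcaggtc
Hspa1b, chr17:34959239-34959488, minus strand: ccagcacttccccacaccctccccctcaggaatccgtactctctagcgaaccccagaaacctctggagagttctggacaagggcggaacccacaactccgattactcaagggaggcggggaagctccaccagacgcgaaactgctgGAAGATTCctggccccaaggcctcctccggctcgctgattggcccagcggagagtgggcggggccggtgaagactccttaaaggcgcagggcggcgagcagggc
Hsph1, chr5:149636337-149636586, minus strand: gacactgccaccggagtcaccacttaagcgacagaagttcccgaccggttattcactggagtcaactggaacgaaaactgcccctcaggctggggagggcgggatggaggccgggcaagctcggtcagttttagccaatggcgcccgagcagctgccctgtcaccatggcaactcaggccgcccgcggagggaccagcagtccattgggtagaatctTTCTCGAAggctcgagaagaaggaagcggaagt
Hspe1, chr1:55087898-55088147, plus strand: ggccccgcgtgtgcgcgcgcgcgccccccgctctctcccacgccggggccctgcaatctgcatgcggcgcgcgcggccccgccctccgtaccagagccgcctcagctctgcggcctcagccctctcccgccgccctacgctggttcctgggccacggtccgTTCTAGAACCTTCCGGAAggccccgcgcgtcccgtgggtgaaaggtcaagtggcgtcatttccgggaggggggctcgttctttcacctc
Hspa5, chr2:34771840-34772089, plus strand: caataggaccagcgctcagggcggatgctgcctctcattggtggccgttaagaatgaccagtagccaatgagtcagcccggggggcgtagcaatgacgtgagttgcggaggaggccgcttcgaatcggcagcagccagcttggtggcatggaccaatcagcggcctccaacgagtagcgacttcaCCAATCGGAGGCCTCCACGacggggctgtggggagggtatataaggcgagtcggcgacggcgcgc

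The windows of Hspa1a and Hspa1b shared 296 of 300 bases (98.7%), and each held a pair of units that begins 104 bases before its start site. The copies lie side by side on chromosome 17. Because their coding sequences are near-identical too, signal of an Hspa1a probe may include Hspa1b. No probe sequences were at hand, and the values given for Hspa1a are uncertain in that respect. Hsph1 had 2 windows, and its upstream stretch held a pair that begins 33 bases before the start site shown and 54 before the other. A full run of 3 units (GAANNTTCNNGAA on either strand) contains the pair. It stood 2 times, overlapping, in the stretch of Hspe1, from 89 bases before its start site. In Hsph1 it stood once, among the 50 bases after either start site. Hspb1 held 2 pairs, 117 and 97 bases before its start site, and Dnajb1 held none in either of its 2 windows. Hspa5 was without heat shock units and held the ER stress element 65 bases before its start site. Over all 32851 RefSeq windows of 300 bases, 15.1% held a pair of units, 0.603% the run of 3 units and 0.119% the ER stress element. These matches are letters in a window and were not tested as binding sites.

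Probes of the targeted genes read lower where the gene was deleted, to differing degrees. The exception was Cdkn1b probe A_52_P673863 in the double knockout. Stmn1 (probe A_52_P319161) averaged 3.1 ± 0.28 (SD, n = 6) in wild type and 2.45 ± 0.87 in the p27 knockout. Where Stmn1 was deleted it averaged -2.95 ± 0.75 (stathmin knockout) and -3.19 ± 0.36 (double knockout). Cdkn1b (probe A_51_P146126) averaged 1.80 ± 0.35 (SD, n = 5) in wild type and 1.64 ± 0.40 (n = 6) in the stathmin knockout, against 0.30 ± 0.57 (n = 6) in the p27 knockout and -0.50 ± 0.88 (n = 5) in the double knockout. A second Stmn1 probe (A_51_P495641) still read 2.01 ± 0.25 (stathmin) and 1.88 ± 0.54 (double knockout) beside 3.54 ± 0.26 in wild type. Of the other Cdkn1b probes, A_51_P169173 read 0.28 ± 0.39 in wild type, -0.78 ± 0.21 without p27 and -0.65 ± 0.25 in the double knockout. The third, A_52_P673863, read -0.50 ± 0.28 in wild type, -0.99 ± 0.21 without p27 and -0.61 ± 0.45 in the double knockout, so the double knockout lay within the wild-type spread. Whether a probe lies in the deleted part is not stated in the sources used here. The p27 knockout arrays were dim: the 99th percentile of the Cy5 signal, in kilounits of the scanner, averaged 86.4 there, against 191 (wild type), 239 (stathmin) and 248 (double knockout). Its replicates 5 and 6 reached 50.7 and 19.4 and correlated with the other arrays by a mean of 0.591 and 0.212, against 0.78 to 0.866 for the other 22 arrays, and calls against the p27 knockout that were lost without them are named as such. The list of double-positive thymocyte markers had a median ratio of at least 5.05 on every array except p27 replicate 6, where it was 0.15. Each of the 6 slides carried 1 array per genotype, always in the same place, and the place on the slide cannot be told apart from the genotype. The 24 arrays limit the precision of all values.

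Between genotypes, members were called (adjusted p under 0.05) in 1 of 6 comparisons. Hspa1a and Hspa8 were higher in the double knockout than in the p27 knockout, 2 of the 9 genes, where 28.8% of all 24784 genes tested were called and 9.70% were called higher. Against that background, 2 of 9 is not read as a result about the group. No member was called between the p27 knockout and wild type, where 0.00807% of all genes were, between the stathmin knockout and wild type (0%), between the double knockout and wild type (0.0121%), between the double and the stathmin knockout (0.00807%), or in the test of departure from additivity (0%). In limma's test the number of members with an unadjusted p under 0.05 was 0, 0, 1, 1 and 1 in those 5 comparisons. The comparisons share mice, so their values are not independent.

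**Figure D1:**
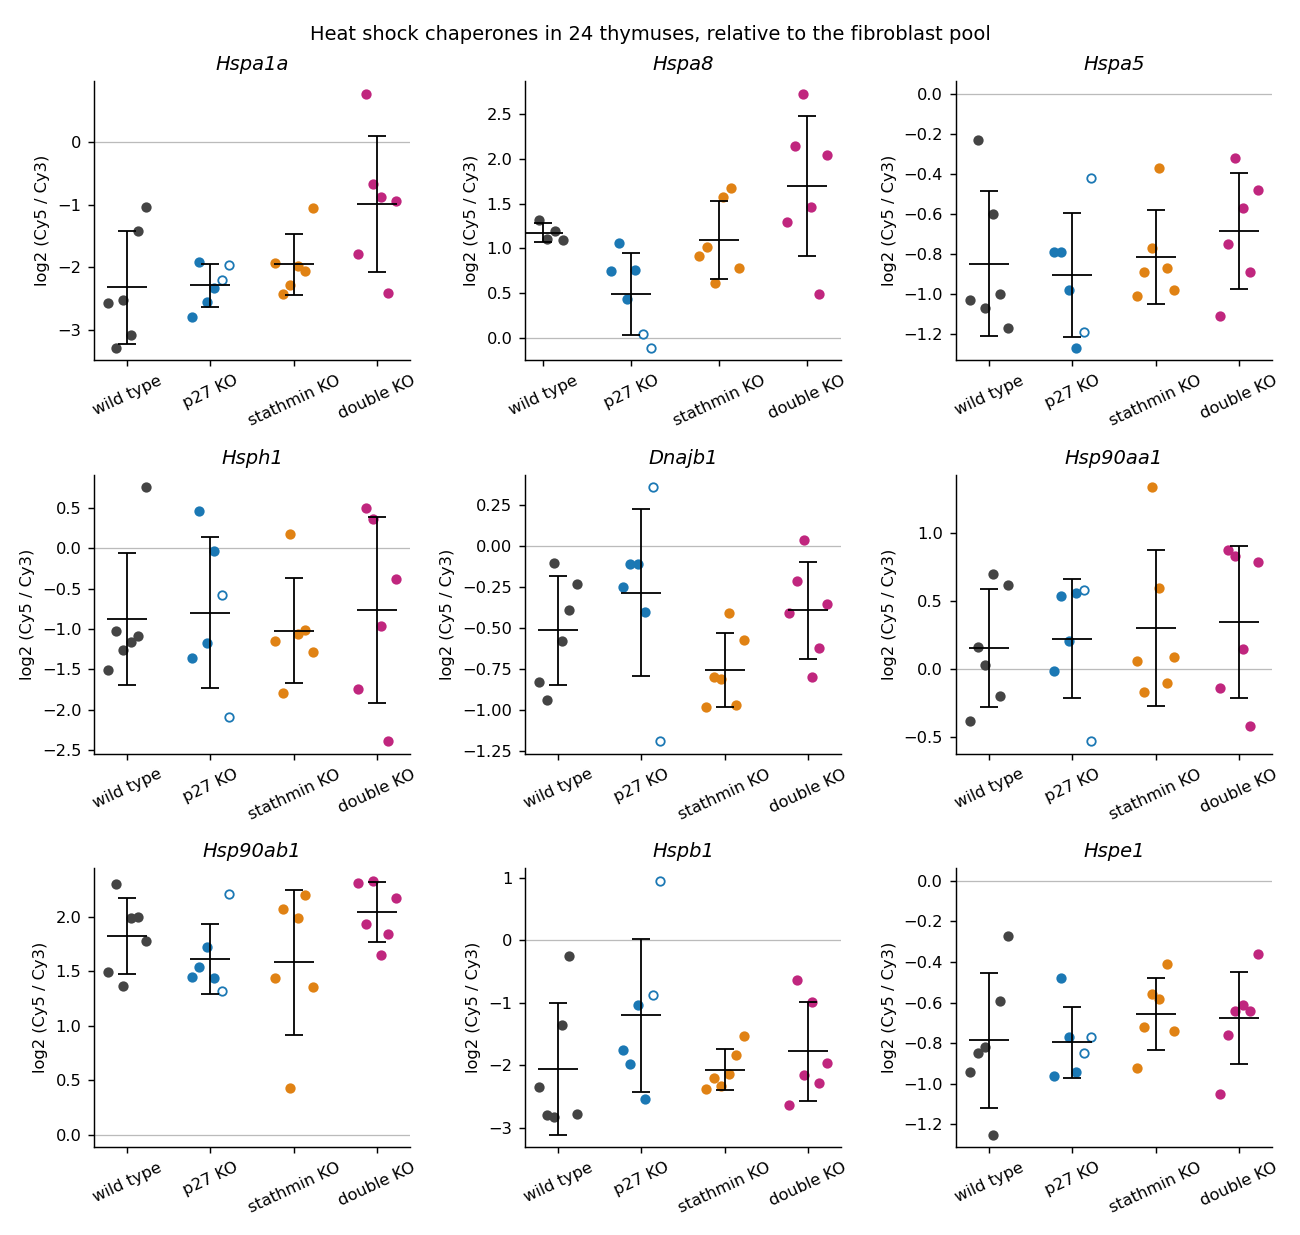
Log2 ratio of thymus over fibroblast pool (vertical axes, each gene on its own scale) of 9 chaperone genes on 24 arrays, by genotype. Each point is 1 mouse, bars are the mean ± SD of 6 mice (4 for Hspa8 in wild type), and open circles are the dim p27 replicates 5 and 6. Hspa1a lies between -2.42 and 0.78 in the double knockout and overlaps every other genotype.

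Hspa1a, the stress-inducible cytosolic HSP70, gave the widest contrast. In the double knockout, replicates 1 to 6 had log2 ratios of -1.79, 0.78, -0.67, -0.87, -2.42 and -0.94. In the p27 knockout they were -2.80, -1.91, -2.55, -2.33, -2.20 and -1.96. Replicate 2 of the double knockout was the only array of the 24 above the fibroblast pool, and every double-knockout array except replicate 5 lay above every p27 array. Wild type had -2.57, -3.29, -2.52, -3.09, -1.42 and -1.04, and the stathmin knockout -1.93, -2.43, -2.29, -1.98, -2.06 and -1.05. Replicates 5 and 6 of wild type and replicate 6 of the stathmin knockout stood above the rest of their groups, so all 4 genotypes overlapped. The means ran from wild type (-2.32 ± 0.90, SD, n = 6) and the p27 knockout (-2.29 ± 0.34) over the stathmin knockout (-1.95 ± 0.48) to the double knockout (-0.99 ± 1.09), and the neighbours among the first 3 lay within their spread.

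Hspa1a was 1.31 ± 0.42 (SE) log2 units higher in the double than in the p27 knockout, a 2.47-fold difference (95% interval 0.43 to 2.18, limma adjusted p = 0.0259). Between arrays of the same slide it ran from -0.51 to 2.98, with 5 of 6 slides above 0, and with the slide as a block the adjusted p was 0.033. Against wild type the difference was of like size, 1.33 ± 0.42 (0.46 to 2.21), with an unadjusted p of 0.00429 and an adjusted p of 0.419, again higher on 5 of 6 slides. Against the stathmin knockout it was 0.97 ± 0.42 (adjusted p = 1). The single knockouts differed from wild type by 0.03 ± 0.42 for p27 (adjusted p = 0.97) and by 0.36 ± 0.42 for stathmin (adjusted p = 1). The departure from additivity was 0.94 ± 0.60 (adjusted p = 0.368).

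The call on Hspa1a was lost in several alternative fits. Without double-knockout replicate 2 the difference from the p27 knockout was 0.95 (adjusted p = 0.0679), without p27 replicates 5 and 6 it was 1.41 (adjusted p = 0.0525), and with array brightness in the fit it was 1.38 (adjusted p = 0.631). The fit on these 2 genotypes alone gave 1.31 (adjusted p = 0.0602). On the Cy5 channel alone it was 2.01 (adjusted p = 0.00605).

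**Figure D2:**
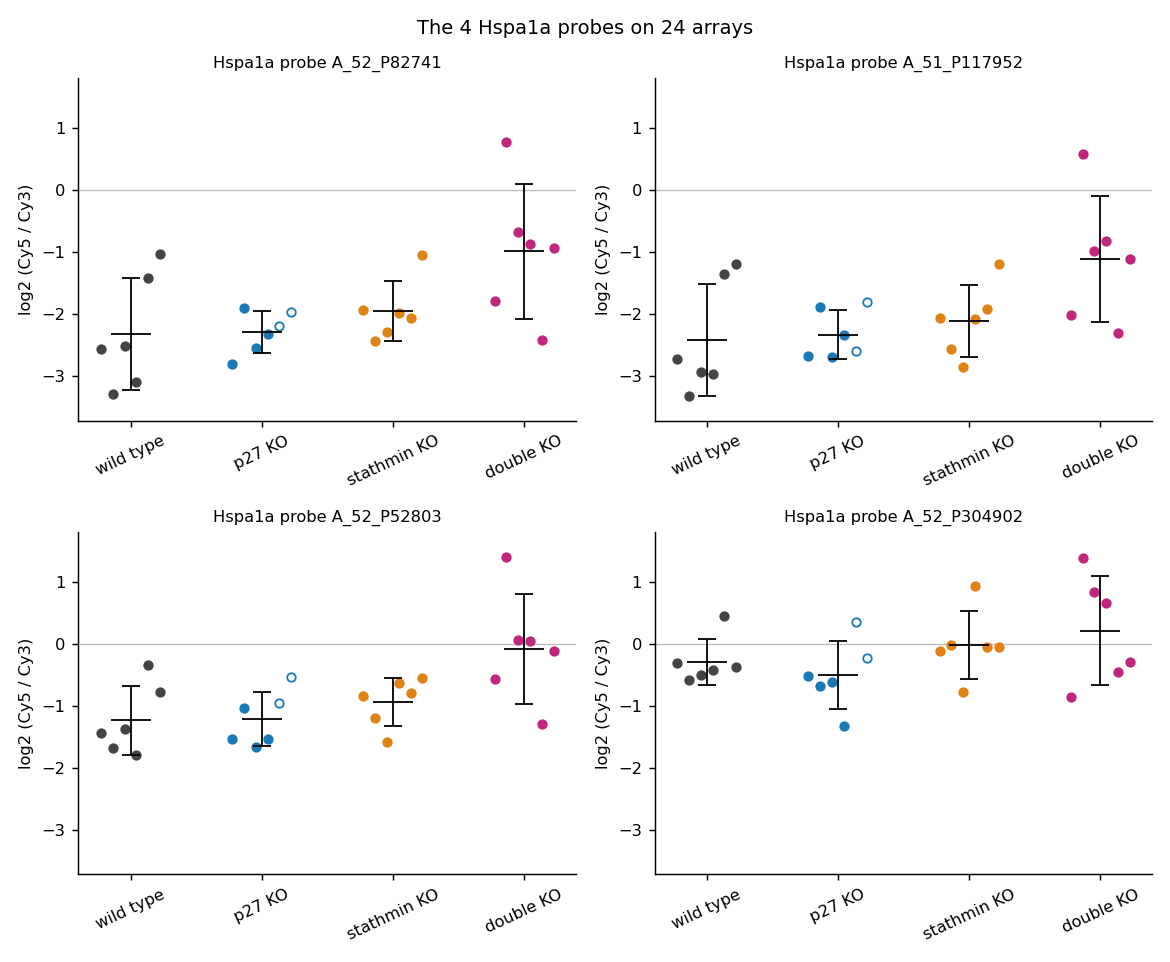
Log2 ratio (vertical axis, shared by the panels) of the 4 Hspa1a probes on 24 arrays, by genotype. Points are mice, bars the mean ± SD of 6 mice, open circles the dim p27 replicates 5 and 6. Double-knockout replicate 2 is the highest array in every panel, at 0.78, 0.58, 1.40 and 1.39.

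The other Hspa1a probes followed the same arrays. Probes A_51_P117952 and A_52_P52803 correlated with the brightest probe (A_52_P82741) by 0.98 and 0.95 over 22 arrays, and were higher in the double than in the p27 knockout by 1.22 ± 0.42 (adjusted p over probes 0.0334) and 1.13 ± 0.34 (0.0173). The dimmest, A_52_P304902, was well above background on 14 of 24 arrays, correlated by 0.67, and differed by 0.72 ± 0.34 (adjusted p 0.112). Of the 16 member probes 7 were called higher in that comparison, where 13.3% of all 35185 probes were: 3 of Hspa1a, both of Hspa8, and the dimmer of the probes of Dnajb1 and of Hsp90ab1. Without p27 replicates 5 and 6 the count was 2, beside 6.04% of all probes: Hspa1a A_52_P52803 (1.36, adjusted p over probes 0.0246) and Hspa8 A_51_P170371 (0.94, 0.0495, which is 0.0507 when adjusted over genes).

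Skeletal muscle markers moved with Hspa1a on some arrays. The median of 9 muscle genes (such as Acta1, Ckm and Myh4) was 5.47 and 5.20 on double-knockout replicates 2 and 4, 4.68 on wild-type replicate 5 and 4.17 and 4.93 on stathmin replicates 5 and 6, and at most 2.95 on the other arrays. Hspa1a on those 5 arrays was 0.78, -0.87, -1.42, -2.06 and -1.05, while wild-type replicate 6 and double-knockout replicates 3 and 6, with muscle medians of 0.41, 0.77 and 1.82, reached -1.04, -0.67 and -0.94. Without the 5 muscle-rich arrays Hspa1a was 0.84 ± 0.39 above the p27 knockout (adjusted p = 0.144) and 1.05 ± 0.40 above wild type (adjusted p = 1). Between whole groups, 8 of 9 muscle genes lay above 0 in the double against the p27 knockout (median 1.23) and in the double knockout against wild type (median 1.12). In whole tissue, fewer cells of a type and less RNA per cell cannot be told apart.

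Hspa8 (HSC70), the constitutive cytosolic HSP70, was the other gene called. In the double knockout its log2 ratios were 1.30, 2.15, 2.73, 1.46, 0.49 and 2.04, and in the p27 knockout 0.75, 1.06, 0.44, 0.76, 0.04 and -0.11. Every double-knockout array but replicate 5 lay above every p27 array, and the dim p27 replicates 5 and 6 were the lowest of all. Wild-type replicates 3 to 6 had 1.32, 1.10, 1.20 and 1.09 (the spots of replicates 1 and 2 were marked as outliers and left out), and the stathmin knockout 0.92, 1.02, 0.61, 1.58, 1.68 and 0.78. The means were 0.49 ± 0.46 (SD, n = 6) in the p27 knockout, 1.10 ± 0.43 without stathmin alone, 1.18 ± 0.11 (n = 4) in wild type and 1.70 ± 0.78 in the double knockout, and only the ends of that order differed beyond the test's threshold.

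Hspa8 was 1.21 ± 0.30 log2 units higher in the double than in the p27 knockout, or 2.31-fold (95% interval 0.58 to 1.83, limma adjusted p = 0.00879). It lay above 0 on 5 of 6 slides, from -0.58 to 2.85, and with the slide as a block the adjusted p was 0.0233. Against wild type the double knockout differed by 0.52 ± 0.34 (adjusted p = 1) and the p27 knockout by -0.69 ± 0.34 (adjusted p = 0.178), and against the stathmin knockout the double knockout differed by 0.60 ± 0.30 (adjusted p = 1). The departure from additivity was 1.29 ± 0.45, with an unadjusted p of 0.00944 and an adjusted p of 0.264. The second probe, A_52_P12877, ranged more widely, from -2.40 to 2.20, and was 2.18 ± 0.58 higher in the double than in the p27 knockout (adjusted p over probes 0.0101, and 0.0578 without p27 replicates 5 and 6). Without p27 replicates 5 and 6 the difference of the brightest probe was 0.94 (adjusted p = 0.0507), a fit in which 0 of the 9 members and 14.3% of all genes were called. On the Cy5 channel alone it was 0.30 (adjusted p = 0.183), and with array brightness in the fit 0.73 (adjusted p = 0.631). With array weights it was 0.83 (adjusted p = 0.0525), and without the 5 muscle-rich arrays 1.15 (adjusted p = 0.0571). Of 17 alternative fits 11 kept the call on Hspa8.

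**Figure D3:**
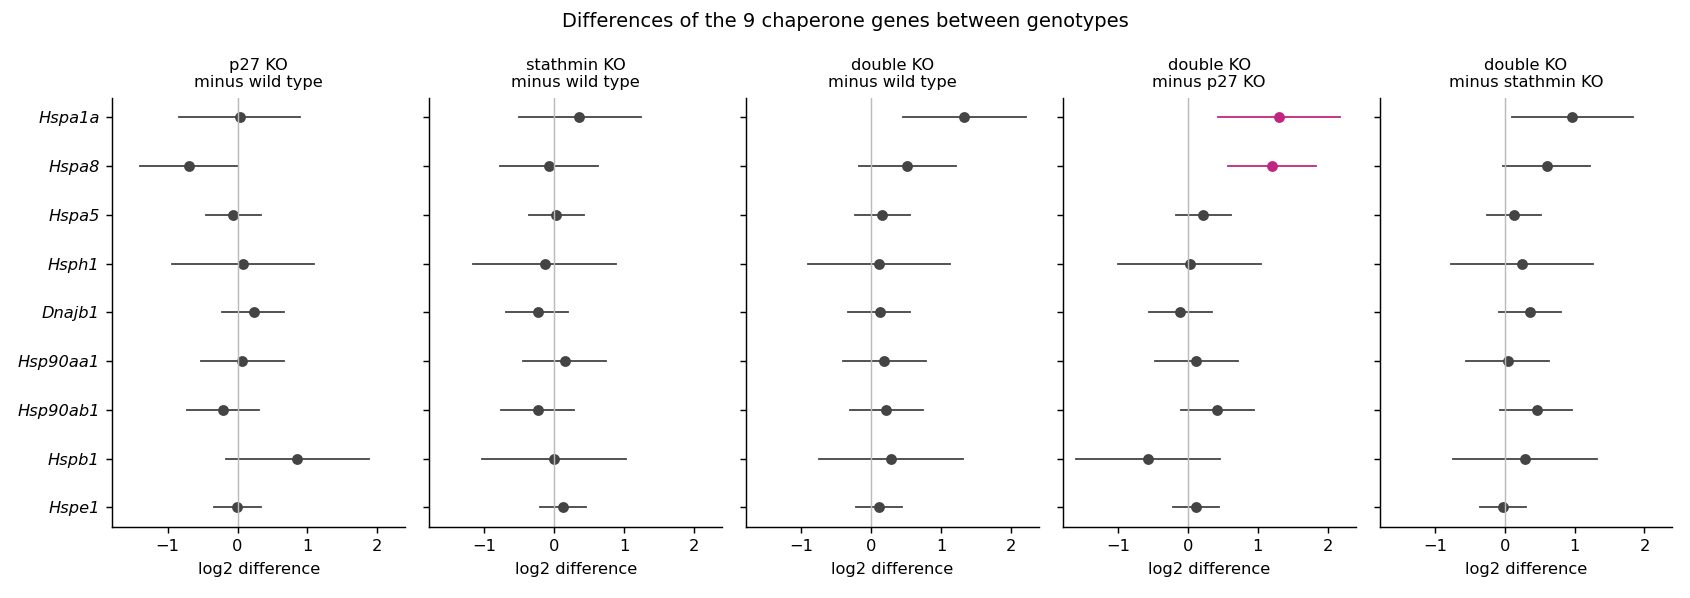
Log2 difference (horizontal axes) of 9 chaperone genes in 5 comparisons of genotypes, with 95% intervals that are not adjusted for the number of genes. Magenta marks an adjusted p under 0.05 over all genes. Hspa1a and Hspa8 are magenta in the double knockout minus p27 knockout panel, at 1.31 and 1.21.

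Dnajb1, the J-domain partner that stimulates HSP70, passed the test in no comparison on its brightest probe (A_51_P153486). Its means (SD, n = 6 each) were -0.76 ± 0.23 in the stathmin knockout, -0.51 ± 0.33 in wild type, -0.39 ± 0.30 in the double knockout and -0.28 ± 0.51 in the p27 knockout. The double knockout differed from the p27 knockout by -0.11 ± 0.22 (adjusted p = 0.718). Its second probe, A_52_P171663, was higher in the double knockout, at 1.05 ± 0.27 against -0.08 ± 0.64, a difference of 1.13 ± 0.29 (adjusted p over probes 0.0083, and 0.0588 without p27 replicates 5 and 6). The 2 probes correlated by 0.41 over 22 arrays, so no direction is given for Dnajb1.

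Hsph1, the HSP110 that recharges HSP70 with ATP, varied most between mice of the same genotype. Its double-knockout values ran from -2.39 to 0.50 with a median of -0.67, those of the p27 knockout from -2.09 to 0.46 (-0.87), the stathmin knockout from -1.79 to 0.18 (-1.10) and wild type from -1.51 to 0.76 (-1.12). The ranges of all 4 groups overlapped. The double knockout differed from wild type by 0.11 ± 0.49 (95% interval -0.91 to 1.13) and from the p27 knockout by 0.03 ± 0.49 (-1.0 to 1.05), so differences of about a doubling in either direction were not detectable. Its SD within genotypes was 0.89, at the 95.1 percentile of all genes tested, with Hspa1a (0.77, percentile 91.8) and Hspb1 (0.74, percentile 90.9) close behind. The median over all genes was 0.38, and Hspe1 (0.25), Dnajb1 (0.26) and Hspa5 (0.28) varied less than that.

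Hsp90aa1, the stress-inducible HSP90, had means that ran between 0.15 ± 0.43 in wild type and 0.35 ± 0.56 in the double knockout, and its difference between those was 0.19 ± 0.29 (adjusted p = 1). Hsp90ab1, the constitutive HSP90, had means of 1.58 ± 0.66 in the stathmin knockout, 1.61 ± 0.32 in the p27 knockout, 1.82 ± 0.35 in wild type and 2.04 ± 0.27 in the double knockout. The double knockout exceeded the p27 knockout by 0.42 ± 0.25 (adjusted p = 0.199). The second Hsp90ab1 probe, A_52_P257204, rose in the same comparison from -0.08 ± 0.98 to 1.54 ± 0.31, by 1.62 ± 0.45 (adjusted p over probes 0.0122, and 0.0606 without p27 replicates 5 and 6). Singled out after their values were seen, the second probes of 3 genes moved together over 22 arrays. Hsp90ab1 correlated with Hspa8 by 0.91 and with Dnajb1 by 0.77, and Hspa8 with Dnajb1 by 0.79. The brightest probes of the same pairs correlated by 0.59, 0.10 and 0.28, the pairs with Hspa8 over 20 arrays. The brightest and the second probe of Hsp90ab1 correlated by 0.72.

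Hspb1 (HSP25), a small heat shock protein that binds unfolding proteins and is abundant in muscle, lay between -2.83 and 0.95 on its brightest probe. The highest arrays were the dim p27 replicate 6 at 0.95 and the muscle-rich wild-type replicate 5 at -0.25 and double-knockout replicate 2 at -0.63. The other muscle-rich arrays, double-knockout replicate 4 and stathmin replicates 5 and 6, read -0.99, -1.83 and -1.53. The p27 replicates 5 and 3, with muscle list medians of -0.55 and -0.33, read -0.87 and -1.04. The p27 knockout differed from wild type by 0.85 ± 0.50 (adjusted p = 0.249), by 0.23 without p27 replicates 5 and 6 (adjusted p = 0.818), and by 1.22 ± 0.45 without the 5 muscle-rich arrays (adjusted p = 0.26). Its dimmer probe (A_52_P88910), well above background on 12 arrays, correlated with the first by -0.10. Hspe1 (HSP10), the lid of the mitochondrial chaperonin, had group means of -0.79 to -0.66 and no difference beyond 0.13 ± 0.16 in any of the 5 comparisons. Hspa5 averaged -0.91 ± 0.31 (p27 knockout), -0.85 ± 0.36 (wild type), -0.82 ± 0.23 (stathmin knockout) and -0.69 ± 0.29 (double knockout), and the 95% interval of the double knockout minus wild type was -0.23 to 0.55.

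On their brightest probes all 9 members lay above 0 in the double knockout against wild type, where 44.4% of all genes did. Their median was 0.19 beside -0.04 over all genes. The dimmer Hspb1 probe (A_52_P88910) lay below 0 there, at -0.64 ± 0.31, and every other member probe above 0. Against the stathmin knockout 8 of the 9 members lay above 0 (45.6% of all genes), with a median of 0.29 beside -0.02. Against the p27 knockout 7 of 9 lay above 0 (41.2% of all genes), with a median of 0.12 beside -0.16. In the single knockouts the members divided evenly, with medians of 0.03 for p27 (0.14 over all genes) and -0.01 for stathmin (-0.02). These counts describe the list and carry no test.

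**Figure D4:**
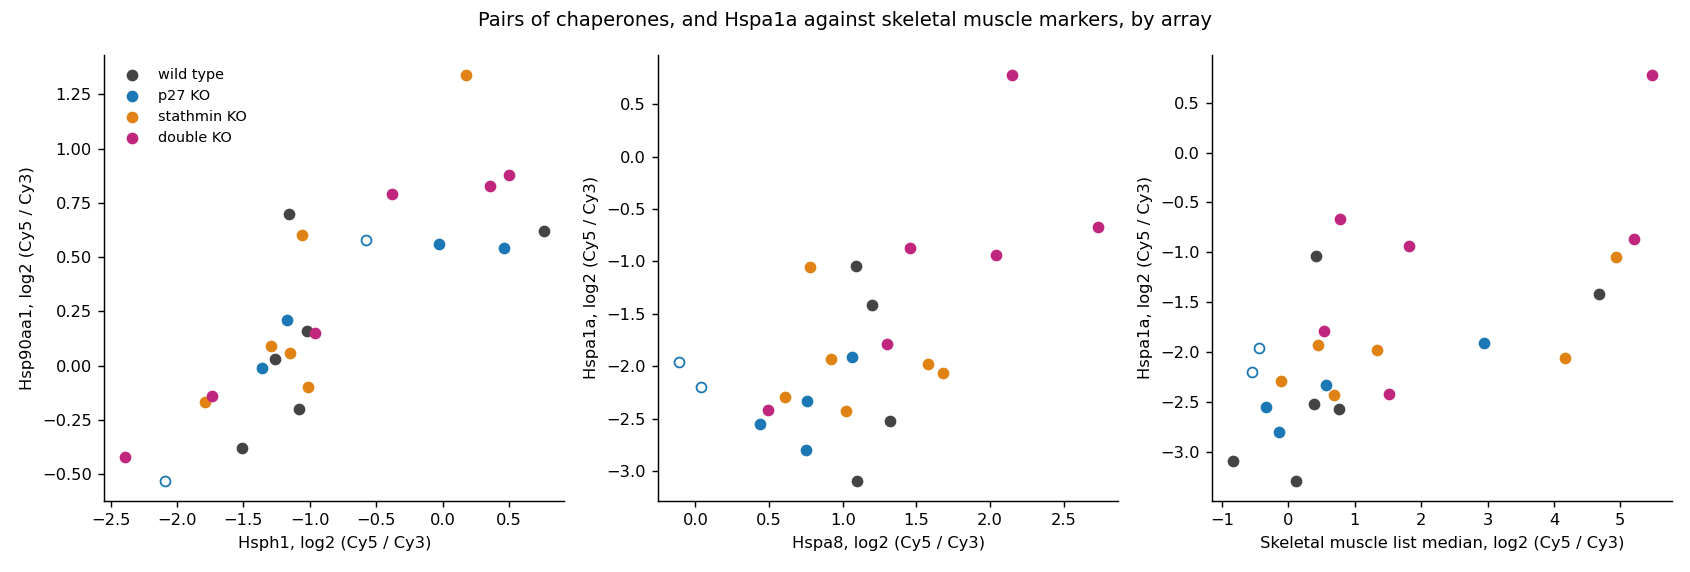
Log2 ratios by array (24 points, 22 in the middle panel, coloured by genotype, open circles for the dim p27 replicates 5 and 6): Hsp90aa1 against Hsph1, Hspa1a against Hspa8, and Hspa1a against the median of 9 skeletal muscle genes. Hsph1 and Hsp90aa1 rise together in all 4 genotypes (Pearson's r = 0.81 without the open circles).

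Some stress-inducible genes went up and down together from mouse to mouse. Hsph1 and Hsp90aa1 correlated by a Pearson's r of 0.81 and a Spearman's rho of 0.78 over 22 arrays (two-sided permutation p 2e-05 and 5e-05, adjusted over the 36 pairs of members 0.00072 and 0.0018), by 0.80 without the 2 arrays farthest from the median of Hsph1, and by 0.82 on deviations from the genotype means. Double-knockout replicates 2 and 3 and stathmin replicate 3 were high for both genes (Hsph1 0.50, 0.36 and 0.18, Hsp90aa1 0.88, 0.83 and 1.34). So were wild-type replicate 6 (Hsph1 0.76, Hsp90aa1 0.62) and p27 replicate 2 (0.46 and 0.54). Double-knockout replicate 5 was low for both (-2.39 and -0.42). Hspa1a and Hspa8 correlated by 0.66 over 20 arrays (rho 0.61, permutation p 0.00197 and 0.00522, adjusted 0.0355 and 0.0626), but by 0.46 without the 2 arrays farthest from the median of Hspa1a and by 0.47 within genotypes. Hspa1a and Hsph1 correlated by 0.52 (rho 0.54, adjusted permutation p 0.0837 and 0.0699) and by 0.68 within genotypes. Arrays share their slides and the Cy3 pool.

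The genes whose pattern was most like the mean of Hspa1a, Dnajb1 and Hsph1 over 22 arrays were Spast (Pearson's r = 0.746), Dynll1 (0.696), Ap1s2 (0.678), Ahsa1 (0.675) and Olfr523 (0.657), where the median over all genes was 0.044 and the 99th percentile 0.481. Spast encodes the microtubule-severing enzyme spastin, Dynll1 a dynein light chain, Ap1s2 an adaptor subunit of clathrin coats, Olfr523 an olfactory receptor and Ahsa1 the activator of HSP90's ATPase. Likeness is given as a description.

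Of 82 other genes of the chaperone network 81 were tested (Dnajb14 had no probe). In the double against the p27 knockout 14 were called higher, beside 9.70% of all genes, and 6 lower, beside 19.1% of all genes. None was called in the other 5 comparisons (up to 12 in the p27 knockout against wild type when 1 array, wild-type replicate 6, was left out), where 21 (p27 against wild type), 1 (stathmin against wild type), 4 (double against wild type), 1 (double against stathmin) and 18 (additivity) had an unadjusted p under 0.05. Without p27 replicates 5 and 6 the numbers in the double against the p27 knockout were 5 higher, beside 3.97% of all genes, and 1 lower, beside 10.4%, without the 5 muscle-rich arrays 4 were called, and with array brightness in the fit 0.

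The transcription factors of the response moved apart in that comparison. Hsf1, the main activator, was lower in the double knockout by a log2 difference of -2.05 ± 0.44 (from 2.81 ± 1.03 to 0.76 ± 0.24, adjusted p = 0.00448, lower on all 6 slides), and Hsf2 1.00 ± 0.24 higher (from -1.04 ± 0.34 to -0.05 ± 0.33, adjusted p = 0.00762). Both remained past the threshold without p27 replicates 5 and 6 (adjusted p = 0.0276 and 0.0379). Against wild type, 0 of the 4 genes in the list of these factors and their regulators were called in either knockout. In limma's test 3 of the 4 had an unadjusted p under 0.05 in the p27 knockout (28.9% of all genes). In the double knockout against wild type 0 of the 4 did (4.73% of all genes). Of the 8 subunits of the TRiC chaperonin, the ring that folds actin and tubulin, 4 were called higher, beside 9.70% of all genes. Called lower were 0, beside 19.1% of all genes. Those called higher included Cct3, by 1.38 ± 0.35 (adjusted p = 0.00897), and Cct7, by 0.58 ± 0.17 (0.0151). The median of the 8 was 0.62 beside -0.16 over all genes. Against wild type the TRiC median was -0.50 in the p27 knockout (7 of 8 below 0), beside 0.14 over all genes. In the double knockout against wild type it was 0.12 (5 of 8 above 0), beside -0.04, and 0 subunits were called in either comparison. Without p27 replicates 5 and 6 only 1 of the 8 was called higher, beside 3.97% of all genes. The median of the 8 was then 0.44 beside -0.13. In that fit Cct3 differed by 1.12 (adjusted p = 0.0414) and Cct7 by 0.41 (0.0761).

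**Figure D5:**
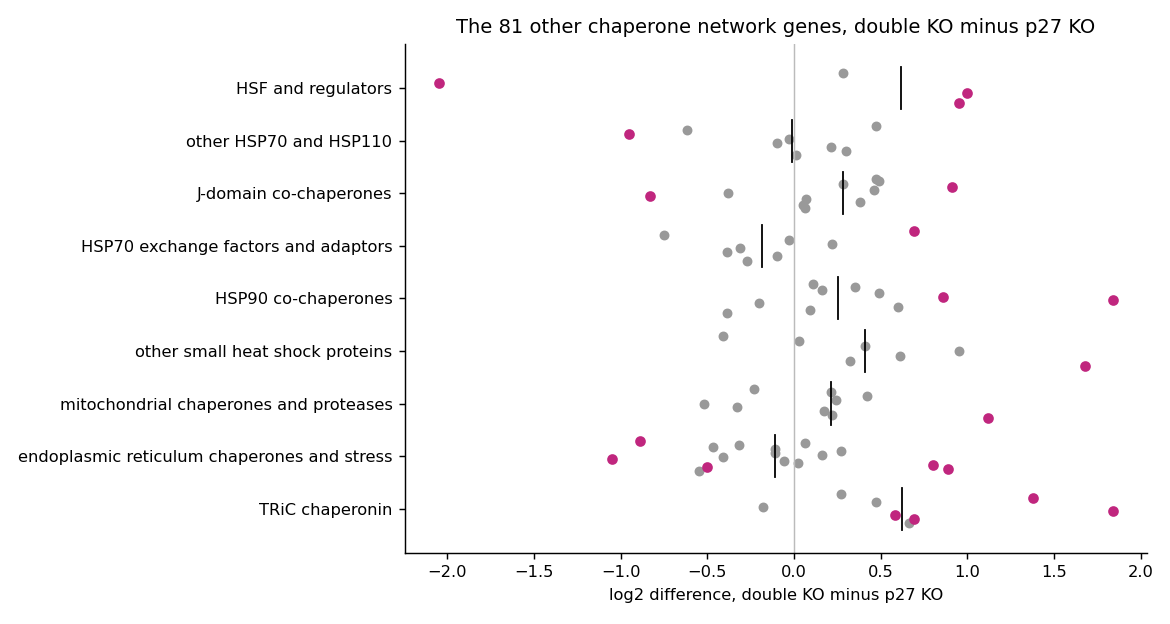
Log2 difference of the double knockout minus the p27 knockout (horizontal axis) for 81 chaperone network genes in 9 lists. Magenta marks an adjusted p under 0.05 over all genes, and black ticks are list medians. The TRiC list has a median of 0.62, and the lowest point is Hsf1 at -2.05.

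Partners of HSP70 were called in both directions with all arrays, and of those named only Bag1 kept its call without p27 replicates 5 and 6 (adjusted p = 0.0445). Bag1, an exchange factor, was higher by 0.69 ± 0.18 (adjusted p = 0.0098) and Dnajb2, a J-domain protein, by 0.91 ± 0.26 (0.0143), while Dnajb6, a J-domain protein that keeps aggregates soluble, differed by -0.83 ± 0.27 (0.0255) and Hspa13, an HSP70 of microsomes, by -0.95 ± 0.26 (0.0125). Without those replicates the adjusted p was 0.0609 for Dnajb2, 0.142 for Dnajb6 and 0.0725 for Hspa13. Bag2 (-0.75 ± 0.29, adjusted p = 0.0505) and Hspa12b (-0.62 ± 0.27, 0.0803) did not pass. Of the HSP90 co-chaperones, the immunophilins Fkbp4 (0.86 ± 0.27, 0.0216) and Fkbp5 (1.84 ± 0.65, 0.0391) were higher with all arrays. Without p27 replicates 5 and 6 both differed by 0.41 (adjusted p = 0.166 and 0.352). Trap1, the mitochondrial HSP90, was higher by 1.12 ± 0.27 (0.00743, and 0.0451 without those replicates), and Dnaja3, a mitochondrial J-domain protein, differed by 0.42 ± 0.19 (0.101). In the endoplasmic reticulum list of 16 genes 2 were called higher and 3 lower, beside 9.70% and 19.1% of all genes, and 0 were called without p27 replicates 5 and 6. Those called with all arrays included the disulfide isomerase Pdia4 (0.80 ± 0.24, 0.0196) and the lectin chaperone Calr (-0.89 ± 0.28, 0.0249).

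The small heat shock proteins other than Hspb1 lay above 0 in 7 of 7 genes in the double knockout against wild type (44.4% of all genes), with a median of 0.94, beside the muscle list's median of 1.12 in the same comparison. In the stathmin knockout against wild type 7 of 7 lay above 0 too (46% of all genes, median 0.28). In the p27 knockout against wild type 6 of 7 did (60% of all genes, median 0.45), or 4 of 7 without p27 replicates 5 and 6 (median 0.09). None was called in these comparisons, and in the double knockout against wild type Hspb8 had the lowest p (1.21 ± 0.39, unadjusted p = 0.00499, adjusted p = 0.45). In the double against the p27 knockout Hspb8 was higher by 1.68 ± 0.39 (adjusted p = 0.00601, and 0.0313 without p27 replicates 5 and 6, higher on 6 of 6 slides) and Hspb3, a muscle form, differed by 0.95 ± 0.45 (0.115). The part of muscle in these values was not tested.

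Marker ratios of some other cell types also differed between the double and the p27 knockout. On the dim p27 replicate 6 the list medians were -1.19 (fibroblasts), -0.13 (adipocytes) and 0.15 (double-positive thymocytes). The part of array dimness in the marker values was not tested. In the double against the p27 knockout all 8 fibroblast markers lay below 0 (median -0.95, 5 called lower), all 7 adipocyte markers above 0 (median 1.19, 3 called higher), and the 10 double-positive thymocyte markers divided 5 and 5 (median -0.02), where 19.1% of all genes were called lower and 9.70% higher. Without p27 replicates 5 and 6, 0 fibroblast markers (median -0.56, 5 of 8 below 0) and 0 adipocyte markers (median 0.55) were called, and 7 of the 10 double-positive thymocyte markers were called lower in the double knockout (median -1.01), beside 10.4% of all genes. The immediate early genes, a sign of handling stress, had median ratios of -0.97 (p27 knockout), -1.22 (wild type), -1.33 (stathmin knockout) and -1.43 (double knockout). The means of the list median were -0.87 ± 0.29, -1.23 ± 0.19, -1.36 ± 0.25 and -1.30 ± 0.35 (SD, n = 6) in that order, so the last 3 overlapped. Gene by gene, the median difference of these 8 genes from wild type was 0.42 (p27 knockout), 0.05 (stathmin knockout) and 0.22 (double knockout, 5 of 8 above 0). Their part in the chaperone values was not tested.

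Between the stathmin knockout and wild type the genes with the lowest p of each list were named by the same rule, and none passed (all adjusted p = 1). Hspb8 (0.83 ± 0.39, unadjusted p = 0.0445) was the only network gene with an unadjusted p under 0.05. The next were Clpp (0.58 ± 0.31), a mitochondrial protease, Dnaja3 (0.33 ± 0.19), Cct2 (-0.28 ± 0.17) and Cct8 (-0.26 ± 0.21), Hspa4 (-0.33 ± 0.20) and Hspa12b (0.35 ± 0.27). Among the partners of HSP70 they were Stub1 (-0.24 ± 0.16), the ubiquitin ligase CHIP, Bag3 (0.36 ± 0.28), Dnajc5 (-0.34 ± 0.23) and Dnajb2 (0.36 ± 0.26). The rest were Manf (-0.21 ± 0.14), Sdf2l1 (0.48 ± 0.32), Ahsa1 (-0.18 ± 0.18), Chordc1 (-0.37 ± 0.41), Hspb2 (0.54 ± 0.62), Hsf1 (-0.54 ± 0.44) and Hsbp1 (0.14 ± 0.20), each a log2 difference with its SE.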

How the data were processed

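Thymus RNA of 24 mice, separate biological replicates per the labels, was amplified, labelled with Cy5 and hybridised to 2-colour Agilent arrays beside a Cy3 pool of fibroblast RNA, with no dye swap. Groups came from the labels. The deposited scanner files give the intensity of each spot and its local background, extracted by version 9.1.3.1 of Agilent's Feature Extraction, per the file headers. They also give the authors' log10 ratios, dye-normalized per the file headers, used as an alternative. A deposited file of log2 values from the authors, whose making the sources used here do not state, follows the brightness of a spot (correlation at least 0.9999 with the mean of both channels on an array, -0.0631 to 0.0069 with the ratio). Its centring is unknown and its direction is that of brightness, not of a ratio. Its column medians, replicates 1 to 6, were 9.29, 9.36, 9.33, 8.66, 9.75 and 9.24 (wild type), 8.75, 8.75, 8.90, 9.12, 8.76 and 8.62 (p27 knockout), 10.56, 9.46, 8.88, 9.10, 9.18 and 9.20 (stathmin knockout) and 9.40, 9.32, 9.46, 9.17, 9.15 and 9.30 (double knockout). It was used only as an alternative.

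In R 4.3.3, with limma 3.58.1 and data.table version 1.17.8, background was corrected by normexp (offset 50), each array was normalized by loess with control spots left out, spots marked as outliers were dropped (a mean of 68 an array and a maximum of 314), and repeat spots of a probe were averaged. Of 41174 gene probes, 22951 took a RefSeq symbol (GRCm38.p6) by accession and 18223 kept the file's name. Probes with Cy5 well above background on at least 6 of 24 arrays were kept (35185), and the brightest stood for a gene (24784). The share of spots with Cy5 well above background was 62.8% to 91.1%. Identical arrays were looked for and 0 pairs found.

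limma's moderated test ran on all 24 arrays with genotype alone in the model, p-values were adjusted over all genes by Benjamini and Hochberg (threshold 0.05), and the procedure was tested on simulated data. Correlations between members used 22 arrays and permutation tests. The alternatives are named in the closing section. Slides come from the barcodes and count as batches. Same-numbered mice of different genotypes did not deviate together (median correlation 0.04, from -0.56 to 0.61), so the main fit used no pairing by number. In wild type, the stathmin knockout and the double knockout the number equals that of the slide. Arrays of different genotypes correlated by a median of 0.14 on the same slide and -0.03 on other slides.

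The members, gene lists, alternatives and rules were chosen with earlier results of these data known. The rule for named genes took all members, of each network list the 2 genes with the lowest p in the stathmin knockout against wild type and in the double against the p27 knockout, and the 5 genes most like the mean of Hspa1a, Dnajb1 and Hsph1, leaving out predicted and clone names. Hyou1, Pdia6, Hsf4, Cct6a and other called network genes are counted and not named in the report. Keeping outlier spots and leaving out the 5 muscle-rich arrays were added after seeing the data.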

Additional observations from a re-analysis of the deposited data

Results flagged for a closer look

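In a test of each of 36 groups of mice (9 genes in 4 genotypes) for a single far value, 2 groups had a sample whose gap to its nearest neighbour, as a share of the group's range, passed Dixon's 95% critical value, and chance alone gives about 1 in 20 such groups. Hspa1a in stathmin replicate 6 stood at -1.05, above -1.93 to -2.43 in the other mice of its group, and that array also had a skeletal muscle list median of 4.93. Hsph1 in wild-type replicate 6 stood at 0.76, above -1.02 to -1.51 in the other mice of its group, and the same mouse had the highest wild-type Hspa1a, at -1.04, with a muscle list median of 0.41.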

How the results depend on the processing

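In 5 of the 6 comparisons 0 members were called under every alternative and with any 1 array left out (the departure from additivity has no fit with only the groups compared). In the double against the p27 knockout the number of members called, 2, was 1 on the Cy5 channel alone, 6 in the authors' deposited table, 1 with array weights, 0 with array brightness as a covariate, 1 with only the groups compared, 0 without p27 replicates 5 and 6 and 0 without the 5 muscle-rich arrays. It stayed at 2 without background correction, with Agilent's log ratios, Aquantile scaling, no filter on dim probes or a filter on all arrays, single probes, the slide as a block, and outlier spots kept, and was 3 with the mean of a gene's probes. Leaving out 1 array gave 1 to 2, the 1 without double-knockout replicate 2. Hspa8 was not among the members called in the deposited table. Dnajb1 and Hspb1 reversed in that table, to 0.94 (adjusted p = 0.00791) and 0.67 (adjusted p = 0.0271). The cause was not tested. With the replicate block the count was 2 and Hspa1a differed by 1.31 (adjusted p = 0.0294), and the block changed no other member's call. 3 of 24 arrays correlated best with their own number, and 8 with their own slide.

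Genes called in the double against the p27 knockout numbered 7137, and 12891 in the deposited table, 4226 with the filter on all arrays, 0 with brightness, 3535 with only the groups compared, 3551 without p27 replicates 5 and 6 and 1673 without the muscle-rich arrays. Network genes called numbered 20, and 71, 0, 13, 6 and 4 under the deposited table, brightness, only the groups compared, without p27 replicates 5 and 6 and without the muscle-rich arrays, and leaving out 1 array gave 13 to 25. In the p27 knockout against wild type 0 network genes were called, 25 in the deposited table, 1 with array weights, and 0 to 12 with 1 array left out (12 without wild-type replicate 6, 7, 4 and 6 without p27 replicates 1, 2 and 4). The other 4 comparisons had 0 throughout. In the p27 knockout against wild type 2 genes were called, 4302 in the deposited table and 1996 with array weights, and leaving out 1 array gave 0 to 2810, the highest without p27 replicate 4. In the double knockout against wild type 3 were called, 344 with array weights, 36 with only the groups compared and 48 without p27 replicates 5 and 6. Leaving out 1 array gave 0 to 26 there. In the 3 other comparisons between 0 and 11 genes were called throughout, against 0 (stathmin knockout and wild type), 2 (double against stathmin knockout) and 0 (additivity).

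The dim p27 arrays, 6 mice per group and a single orientation of the dyes limit what these data can show.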
